A study of Mus musculus with 25 samples.

Results

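The genes described here are those encoded by the mitochondrial genome, taken as every row of the count table whose mouse symbol begins with mt-. There are 37 of them among 56941 genes, namely 13 protein genes, 2 ribosomal RNA (rRNA) genes and 22 transfer RNA (tRNA) genes, and all 37 were counted in each of 25 mouse hearts. The study compared wild-type (WT) mice with mice labelled MCT1KO, named for the lactate and pyruvate carrier MCT1, in hearts labelled no pump, saline or Ang/PE. Ang/PE stands for agonists of neurohormonal receptors used to produce cardiac hypertrophy, and the series asks how lactate metabolism takes part in it. The groups held 4 WT and 3 MCT1KO hearts without a pump, 6 WT and 4 MCT1KO hearts with saline, and 3 WT and 5 MCT1KO hearts with Ang/PE. The promoter or Cre line behind the knockout, the strain, the age, the sex and the length of infusion are not given in the sources used here. Nothing in the labels beyond the count of hearts says that replicates came from separate animals, so p-values measure only the spread between these samples.

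The mitochondrial genome is a small circle that codes for core subunits of respiratory complexes I, III, IV and V and for the rRNAs and tRNAs that translate them inside the organelle. A mitochondrial RNA polymerase copies nearly the whole of each strand into long transcripts, and excision of the tRNAs that lie between the other genes releases the individual RNAs. The heart, with its dense mitochondria, is one of the tissues richest in these RNAs, while most subunits of the same complexes are coded in the nucleus.

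Hearts held 12216704 to 24880683 counts, and depth followed the groups, from 18382102 to 24880683 without a pump to 12216704 to 16610416 with Ang/PE. Slc16a1, which codes for MCT1, had 132 to 249 CPM in the 25 hearts, a CPM being 1 count per 1000000 of a library total scaled by the TMM method. Its log2 fold change of MCT1KO against WT was -0.02 without a pump, -0.33 with saline and -0.18 with Ang/PE. The counts show no loss of Slc16a1, so genotype is used below as a label alone. Xist, the RNA of the inactive X chromosome, was at 547 to 758 CPM in 13 hearts and at most 0.536 CPM in the other 12. The high hearts were 2 of 4 in WT and 0 of 3 in MCT1KO without a pump, 1 of 6 in WT and 3 of 4 in MCT1KO with saline, and 3 of 3 in WT and 4 of 5 in MCT1KO with Ang/PE, so Xist moved with the groups. Its part in the results was not tested beyond a fit with Xist as a covariate. Several hearts, most of them saline, were high in markers of atrium (Myl4, Myl7, Sln, Nppa) or of fat (8 genes including Adipoq and Ucp1). Summed atrial CPM ran from 60.3 to 132 in WT no pump, 46.5 to 2593 in WT saline, 21.9 to 463 in MCT1KO no pump, 64.0 to 7377 in MCT1KO saline, 153 to 316 in WT Ang/PE and 315 to 5143 in MCT1KO Ang/PE. Summed adipose CPM was 11.8 to 18.3 without a pump, 13.5 to 59.7 in WT saline, 12.4 to 1610 in MCT1KO saline and 12.6 to 16.3 with Ang/PE.

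A set of sequences shows why some members cannot be read as levels of 1 gene. Nuclear chromosome 1 carries a run of gene models that copies the stretch from mt-Co1 to mt-Nd4, and the start of mt-Nd3, a small complex I subunit, is shown beside its copy Gm28438. Sequences are GENCODE M21 (GRCm38) transcripts, 5′ to 3′, and the capital marks the only base at which the 345 aligned bases differ, the substitution T3C counted from the first base of each.
mt-Nd3: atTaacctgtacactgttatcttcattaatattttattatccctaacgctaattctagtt
Gm28438: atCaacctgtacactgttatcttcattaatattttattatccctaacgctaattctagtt
The end of mt-Atp8 is shown because its last 43 bases, in capitals, are also the first bases of mt-Atp6, so that reads there match both genes.
mt-Atp8: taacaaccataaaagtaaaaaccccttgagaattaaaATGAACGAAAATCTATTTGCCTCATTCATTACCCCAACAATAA
The tRNAs below, with the anticodon in capitals, are 3 of the most counted (isoleucine, methionine and glutamine) and the 2 that flank mt-Nd3 (glycine and arginine).
mt-Ti: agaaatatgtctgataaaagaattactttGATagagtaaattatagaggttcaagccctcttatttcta
mt-Tm: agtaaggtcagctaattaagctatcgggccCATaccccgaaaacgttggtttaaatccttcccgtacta
mt-Tq: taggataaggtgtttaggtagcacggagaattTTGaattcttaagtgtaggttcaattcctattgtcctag
mt-Tg: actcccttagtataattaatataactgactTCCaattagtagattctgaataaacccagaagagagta
mt-Tr: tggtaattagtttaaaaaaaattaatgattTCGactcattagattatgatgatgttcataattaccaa

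Mitochondrial genes took between 8.87% and 18.4% of the counts of a heart. Without a pump the share was 18.4%, 14.8%, 17.1% and 18.2% in WT (17.1% ± 1.64, SD, n = 4) and 15.9%, 18.2% and 12.8% in MCT1KO (15.6% ± 2.68, n = 3). With saline it was 8.94% at the lowest, 11.9% at the median and 14.8% at the highest in WT (11.7% ± 1.90, n = 6), and 9.03%, 9.65%, 17.3% and 10.04% in MCT1KO (11.5% ± 3.86, n = 4). With Ang/PE it was 12.6%, 14.2% and 15.1% in WT (13.98% ± 1.29, n = 3) and 13.5%, 8.87%, 10.5%, 12.7% and 11.8% in MCT1KO (11.5% ± 1.82, n = 5). All 6 WT saline hearts lay below all 4 WT no pump hearts, the nearest pair by a margin smaller than the last digit given. The 95% Wilson intervals, which cover counting error only, reached at most 0.0192 percentage points on either side, and those of that nearest pair overlapped. Over TMM-scaled library sizes the groups overlapped, with 15.8% in WT saline replicate 1 and 14.05% in WT no pump replicate 2. In the other 6 comparisons of a pair of groups the shares of all counts overlapped.

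The difference of means between saline and no pump was -5.38 percentage points in WT and -4.13 in MCT1KO. MCT1KO against WT differed by -1.47 points without a pump, -0.22 with saline and -2.51 with Ang/PE, each with overlapping hearts. Ang/PE against saline differed by 2.26 points in WT and -0.03 in MCT1KO. The sign of this last value turned over TMM-scaled library sizes, to 1.24 points. For protein genes alone it was 0.17 points over all counts and 0.138 over all counts without the rRNA and tRNA genes. Single hearts decided several of these values. The genotype difference without a pump became -0.07 points without MCT1KO no pump replicate 3, -2.74 without MCT1KO no pump replicate 2 and -2.25 without WT no pump replicate 2. With saline it became -2.14 points without MCT1KO saline replicate 3 and -0.78 without WT saline replicate 6, and without WT saline replicate 1 or MCT1KO saline replicate 1, 2 or 4 it lay above 0, at 0.26 to 0.60. Without MCT1KO saline replicate 3, Ang/PE stood 1.89 points above saline in MCT1KO. In bulk RNA a lower share can come from fewer mitochondria-rich cells, from less mitochondrial RNA per cell or from more of other RNA, and these cannot be told apart.

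The marker sums of some hearts moved with the share. In MCT1KO saline, replicate 3 had the highest mitochondrial share and the lowest atrial and adipose sums, 64.0 and 12.4 CPM, against 2007 to 7377 and 73.9 to 1610 CPM in its group. In WT saline, replicate 1 had both the highest share and the lowest atrial sum, 46.5 CPM. In MCT1KO Ang/PE, replicate 2 had the lowest share and the highest atrial sum, 5143 CPM. The order did not hold throughout, since MCT1KO saline replicate 4, with the highest atrial sum of its group, did not have its lowest share. The part of these tissue markers in the mitochondrial shares was not tested.

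**Figure D1:**
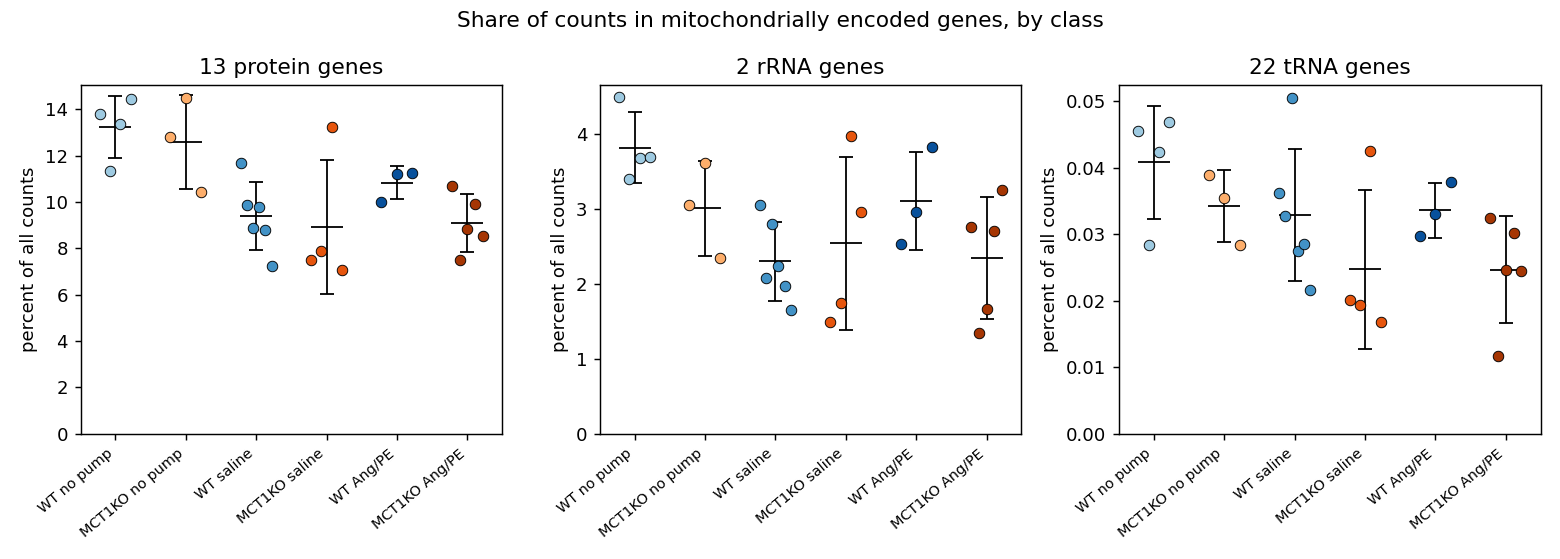
Percent of all counts in the 13 protein genes, 2 rRNA genes and 22 tRNA genes; each point is a heart, and bars give the group mean and SD. The WT saline hearts lie below the WT no pump hearts in the rRNA panel and overlap them in the others, and MCT1KO saline replicate 3 stands above its group.

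By class, protein genes took 7.07% to 14.5% of all counts, rRNA genes 1.34% to 4.50% and tRNA genes 0.0118% to 0.0505%. Protein genes made up a median of 79.4% of mitochondrial counts, rRNA genes 20.3% and tRNA genes 0.239%. Libraries were made from rRNA-depleted RNA, so the rRNA share is what depletion left and is no level of rRNA in the heart. For rRNA, all 6 WT saline hearts lay below all 4 without a pump, with means of 2.30% and 3.82%, but over TMM-scaled library sizes WT saline replicate 1, at 3.26%, passed WT no pump replicate 2, at 3.23%. For protein genes, 5 of the 6 did so, with means of 9.38% and 13.2%.

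Within the protein class, mt-Co1, the catalytic subunit of complex IV, held 47.6% ± 1.97 of the counts (SD over 25 hearts). Then came mt-Cytb, the complex III subunit, with 13.9%, and the complex I subunits mt-Nd5 with 13.8%, mt-Nd1 with 10.6%, mt-Nd2 with 7.39% and mt-Nd4 with 5.72%. Over all hearts the share of mt-Co1 lay between 43.2% and 51.0%, that of mt-Nd5 between 11.9% and 16.7% and that of mt-Nd1 between 9.27% and 11.97%. In WT, mt-Nd1 held 10.98% to 11.4% without a pump and 9.27% to 10.6% with saline. For mt-Nd5 these ranges were 11.9% to 14.04% and 14.3% to 16.7%. mt-Nd6, the 1 protein gene among the 9 genes read from the opposite strand, held 0.814%, with a range of 0.441% to 1.45%. The 6 remaining genes, mt-Co2 and mt-Co3 of complex IV, mt-Atp8 and mt-Atp6 of complex V, and mt-Nd3 and mt-Nd4l of complex I, together held 0.157% to 0.392%.

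Per length, mt-Co1 was the highest at a median of 32134 CPM per kb, above mt-Cytb with 12661, mt-Nd1 with 11546, mt-Nd5 with 8149, mt-Nd2 with 7506 and mt-Nd4 with 4335. The range of mt-Cytb over hearts, 7754 to 20304 CPM per kb, overlapped that of mt-Nd1, 6494 to 20050, although mt-Cytb was the higher in 23 of the 25 hearts. mt-Nd6 followed at 1539 CPM per kb. The 6 low genes had medians of 55.3 to 88.2 CPM per kb, which is 364 to 581 times below mt-Co1. They lie next to each other, apart from tRNAs, between mt-Co1 and mt-Nd4.

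The same 6 genes, except mt-Atp8, are those that annotated nuclear transcripts repeat nearly whole. Of all stretches of 50 bases, 100% in mt-Co2, 99.5% in mt-Atp6, 99.9% in mt-Co3, 97.99% in mt-Nd3 and 98.8% in mt-Nd4l also occur in an annotated nuclear transcript. The figure was 51.1% for mt-Co1, 62.2% for mt-Nd4, 8.19% for mt-Nd2, 7.61% for mt-Nd5, 1.04% for mt-Rnr2 and 0 for mt-Nd1, mt-Nd6, mt-Cytb, mt-Rnr1 and mt-Atp8. mt-Atp8 is thus low with no shared stretch of 50 bases in the annotated transcripts. The nuclear gene model Gm10925, a copy of mt-Atp6, matches that gene at all 678 aligned bases. Most of the 43 bases that mt-Atp8 shares with mt-Atp6 therefore also occur in an annotated nuclear transcript. The bases between nuclear gene models were not searched. How reads with several matches, or reads over overlapping genes, were counted is not given in the sources used here, and its part in the low values was not tested.

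The copies were counted too. Of the counts of a gene and its copy together, the gene held a median of 52.3% for mt-Co2 (copy Gm28661), 40.5% for mt-Atp6 (Gm10925), 38.3% for mt-Co3 (Gm28437), 61.8% for mt-Nd4l (Gm10222) and 89.4% for mt-Nd3 (Gm28438). It held 99.5% for mt-Nd4 (Gm28439) and 99.9% for mt-Co1 (Gm29216), whose copies are partial. The levels of those 5 genes, and all comparisons of them below, are therefore uncertain. mt-Co1 and mt-Nd4 also shared 51.1% and 62.2% of their stretches with annotated nuclear transcripts, and the handling of reads there is equally unknown. Their levels per length, and comparisons of them, are therefore also uncertain, to a degree that was not tested.

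**Figure D2:**
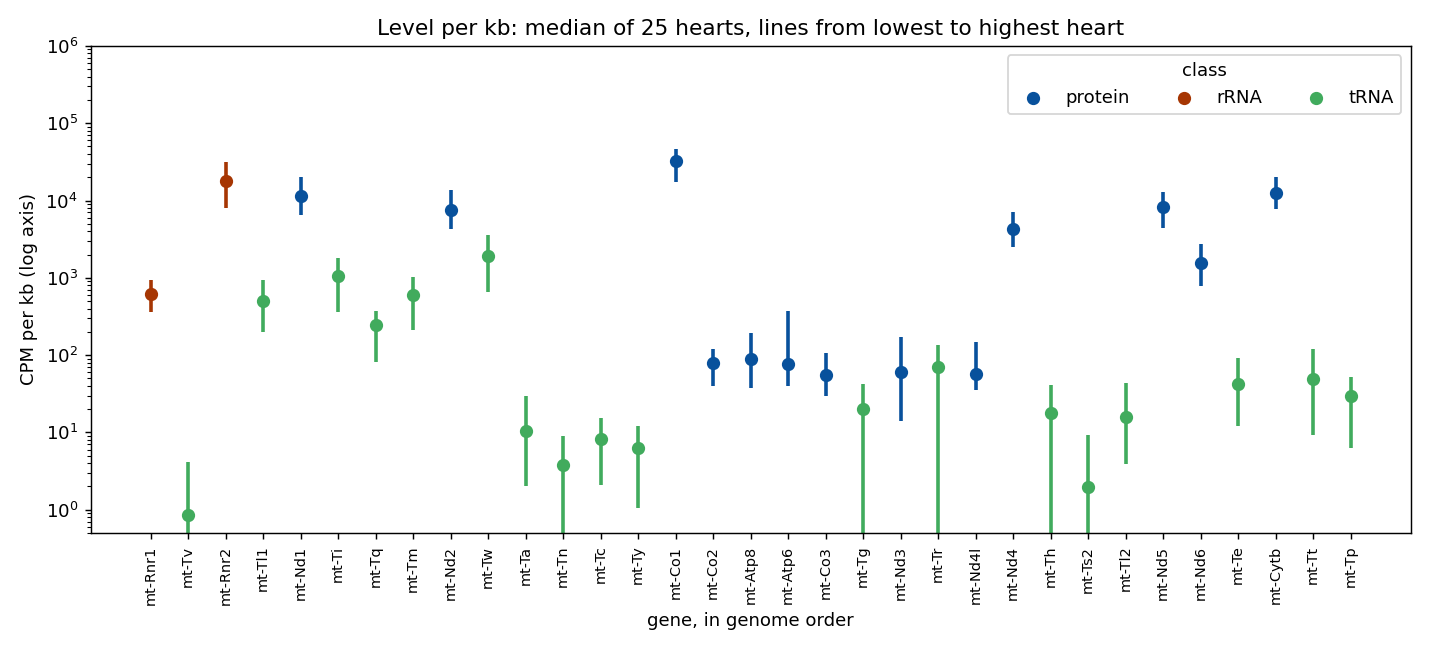
Level of each gene in CPM per kb on a log axis, in genome order, for the genes with a median above 0; points are medians of 25 hearts and lines run from the lowest to the highest heart (cut at the lower edge where a heart has 0). The 6 protein genes from mt-Co2 to mt-Nd4l sit between 55.3 and 88.2, while mt-Co1 sits at 32134.

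Of the rRNAs, mt-Rnr2, the 16S rRNA of the large ribosomal subunit, held 97.8% of the class and mt-Rnr1, the 12S rRNA of the small subunit, 2.23%, with a range of 1.421% to 3.06%. The median per length was 17710 CPM per kb for mt-Rnr2 and 609 for mt-Rnr1. Of the tRNAs, mt-Tw (tryptophan) held 39.8% of the class, mt-Ti 23.3%, mt-Tm 12.7%, mt-Tl1 (leucine) 12.1% and mt-Tq 5.77%. These 5 lie in the stretch from mt-Rnr2 to mt-Co1, and together they held 91.5% to 96.1% of tRNA counts. No other tRNA exceeded 203 counts in any heart. In all, 15 of the 22 tRNAs passed the filter on low counts; mt-Tf, mt-Tv, mt-Tn, mt-Ts1, mt-Td, mt-Tk and mt-Ts2 did not, with at most 11 counts in any heart.

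Saline against no pump asks what the pump and vehicle change without the agonists. In WT hearts, 3 of the 30 tested members had an adjusted p under 0.05 by edgeR's quasi-likelihood test, all lower with saline: mt-Atp6, mt-Co3 and mt-Atp8, neighbours on the genome. Over all 17682 tested genes the test called 6.61%, and 4.22% as lower. DESeq2 called 6 members, adding mt-Nd1, mt-Co1 and mt-Nd4, against 11% of all genes. At an unadjusted p below 0.05, 9 members were lower and 0 higher, where 12.9% of all genes were lower.

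mt-Atp6, which forms part of the proton channel of ATP synthase, had 175, 57.8, 185 and 80.3 CPM in WT without a pump, and 27.3, 45.2 and 53.9 CPM at the lowest, median and highest WT saline heart. No WT saline heart reached the lowest no pump heart, and the no pump hearts fell into a high and a low pair. The log2 fold change was -1.51 (SE 0.36, adjusted p = 0.0213, edgeR). In MCT1KO the gene had 139, 63.0 and 252 CPM without a pump against 31.3, 31.4, 76.0 and 27.1 CPM with saline, where the highest saline heart passed the lowest no pump heart. Its log2 fold change there was -1.87 (SE 0.43, adjusted p = 0.129, edgeR).

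As a share of the counts of the 13 protein genes, mt-Atp6 held 0.0390% to 0.0588% in all 18 hearts with a pump. Without a pump it ranged from 0.0536% to 0.144% in WT and from 0.0393% to 0.239% in MCT1KO. Of the 7 hearts, 4 lay above every pumped heart and 3 did not. In those 4 (replicates 1 and 3 of WT and of MCT1KO), mt-Atp6 held 62.4%, 64.5%, 58.2% and 72.7% of the counts of gene and copy. The other hearts had 30.2% to 44.9%. The copy Gm10925 had 106, 102, 99.7 and 94.7 CPM in those 4 and 83.0, 112 and 106 CPM in the other no pump hearts. The part of read placement between gene and copy was not tested. With libraries scaled to the summed protein genes, mt-Atp6 still fell with saline, by 1.01 on the log2 scale in WT (SE 0.30, adjusted p = 0.0253, edgeR) and by 1.43 in MCT1KO (SE 0.36, adjusted p = 0.0264). That scaling called 23.7% and 55.7% of all genes, since it sets the mitochondrial total as constant. With the counts of the nuclear copy added, an alternative chosen after seeing the data, the fold change in WT was -1.07 (adjusted p = 0.0176), in a fit that called 6.57% of all genes.

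mt-Co3, a complex IV subunit, had 84.2, 56.7, 64.4 and 74.1 CPM in WT without a pump and 25.6, 37.7 and 46.5 CPM at the lowest, median and highest WT saline heart. The groups did not overlap, which held for 2 members, mt-Atp6 and mt-Co3, and for 6.22% of all genes in this direction. The log2 fold change was -0.92 (SE 0.23, adjusted p = 0.0248, edgeR). mt-Atp8, a small subunit of ATP synthase, had 28.8, 19.7, 39.2 and 27.4 CPM without a pump and 9.54, 14.01 and 19.7 CPM at the lowest, median and highest saline heart. The highest saline heart just passed the lowest no pump heart, and the log2 fold change was -0.99 (SE 0.28, adjusted p = 0.0389). Scaled to the protein genes, mt-Co3 and mt-Atp8 missed the threshold, with adjusted p of 0.0553 and 0.0609.

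The other protein and rRNA genes, apart from mt-Nd6, also had estimates below 0 in WT, none of which passed in edgeR. mt-Co1 had 72367, 53325, 62538 and 71412 CPM without a pump and 33268, 43559 and 58261 CPM at the lowest, median and highest saline heart. Only the highest saline heart reached into the no pump range, and the log2 fold change was -0.53 (SE 0.20, adjusted p = 0.106). The log2 fold changes of the complex I subunits were -0.62 for mt-Nd1, -0.48 for mt-Nd2, -1.03 for mt-Nd3, -0.58 for mt-Nd4, -0.24 for mt-Nd4l and -0.25 for mt-Nd5. Those of mt-Cytb and mt-Co2 were -0.39 and -0.43, and those of mt-Rnr1 and mt-Rnr2 -0.52 and -0.72. mt-Nd6 was at 0.07 (SE 0.28), with WT saline hearts from 483 to 1415 CPM around the no pump values of 1386, 723, 877 and 782 CPM.

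Over the 13 protein genes the median log2 fold change was -0.53, beside 0.00 over all tested genes, and 12 of the 13 were below 0. Of these 12, mt-Nd4l turned above 0 with copy counts added (0.22), with covariates for the atrial and adipose markers (0.20) and with offsets for GC content and length (0.18). mt-Nd5 did so with the covariates (0.11) and offsets (0.10), mt-Cytb with the covariates (0.03) and mt-Co2 with the offsets (0.04). Without WT no pump replicate 4, 1 member passed in the WT comparison, against 1.28% of all genes. The 3 calls ended without WT no pump replicate 3, where 0 members and 0.341% of all genes passed. They also ended once scores of the atrial and adipose markers entered as covariates, where 0 of all 17682 genes passed, and with offsets for GC content and length, where 155 genes but no member passed; both were chosen after seeing the data. The protein genes have a median GC content of 37.1%, against 49.0% for tested genes with a value. In this comparison the cardiomyocyte markers also differed, with sums over 10 genes of 77871 to 116897 CPM without a pump and 125232 to 145752 CPM with saline. Of those 10, 2 were called higher (Ttn and Ryr2), 4 were below 0 and the median log2 fold change was 0.09, while 3 of 4 atrial markers were called higher. The cardiomyocyte markers entered no fit, and the part of any of these markers in the members' difference was not tested beyond the fit with atrial and adipose covariates.

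In hearts labelled MCT1KO, edgeR called 0 members between saline and no pump, and 0.00566% of all genes were called. At an unadjusted p below 0.05, 11 members were lower, where 4.68% of all genes were. DESeq2 called mt-Atp6, against 1.18% of all genes. All 13 protein genes were below 0, with a median of -0.68 beside 0.01 over all genes. mt-Nd3 turned above 0 with a block for replicate number (0.10), the Xist covariate (0.19), marker covariates (0.60) and GC and length offsets (0.14), mt-Nd4l with marker covariates (0.20) and mt-Nd6 with the Xist covariate (0.28). mt-Co1 had 63796, 69239 and 49648 CPM without a pump and 34149, 35678, 63999 and 26500 CPM with saline, so that 3 saline hearts lay below every no pump heart and replicate 3 did not. Its log2 fold change was -0.60 (SE 0.24, adjusted p = 0.306, edgeR). Without that heart edgeR called 10 members, all protein genes (mt-Nd1, mt-Nd2, mt-Co1, mt-Co2, mt-Atp8, mt-Atp6, mt-Co3, mt-Nd4, mt-Nd5 and mt-Cytb), against 3.5% of all genes.

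The interaction of genotype and saline, which tests whether the saline difference depends on the label, called 0 members in edgeR (0.00566% of all genes) and in DESeq2 (2.1%), and 0 had an unadjusted p below 0.05, against 17.2% of all genes. Protein members ranged from -0.44 for mt-Nd5 (SE 0.33) to 0.94 for mt-Nd3 (SE 0.65). The value of mt-Nd3 includes MCT1KO no pump replicate 2, whose counts of this gene and its copy are described below.

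**Figure D3:**
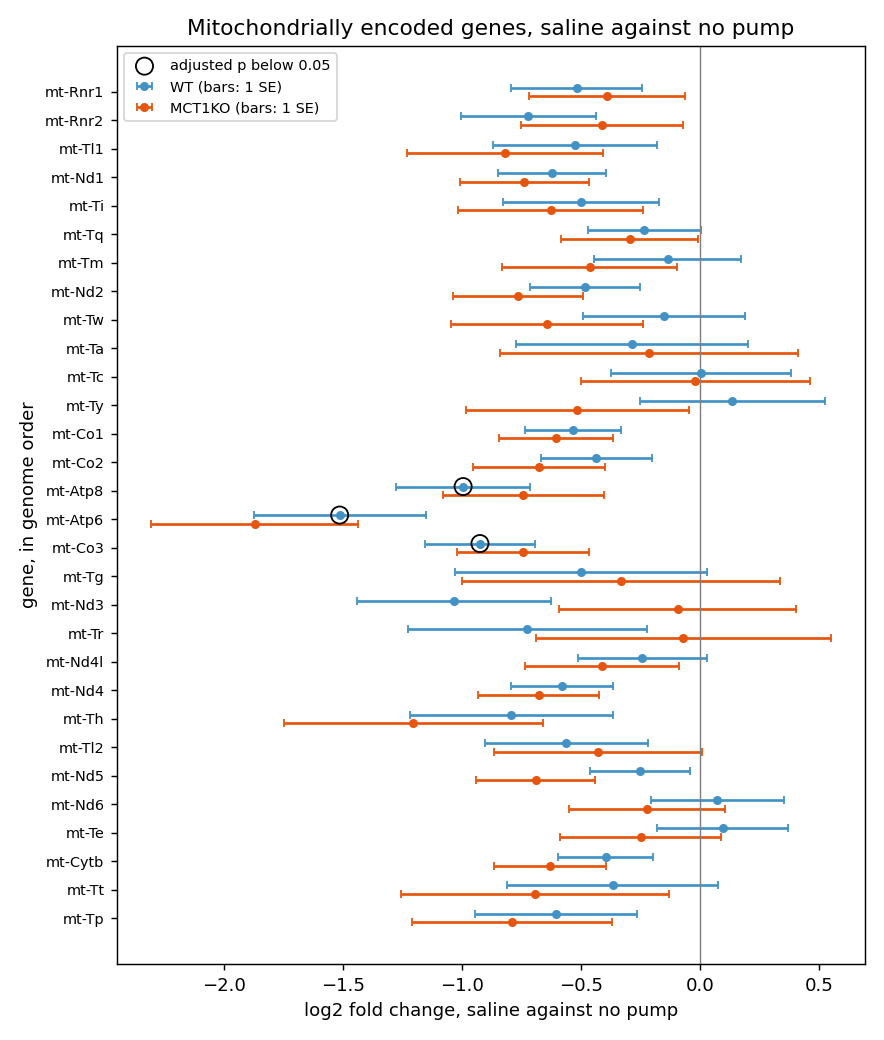
Saline compared with no pump, as log2 fold change, for the 30 tested members in genome order, in WT and MCT1KO; bars are 1 SE and circles mark an adjusted p below 0.05. Circles appear at mt-Atp8, mt-Atp6 and mt-Co3 in WT, and most other points lie between -1 and 0.

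A single heart stood apart at mt-Nd3 and its neighbours, which were singled out after their values were seen. MCT1KO no pump replicate 2 had 84 counts of mt-Nd3, 0 of mt-Tr and 0 of mt-Tg, where the other 24 hearts had 93 to 1328, 28 to 203 and 3 to 53. A count of 0 allows up to 3 counts, or 0.175 CPM, in that library. The same heart had 411 counts of the copy Gm28438, where the others had 15 to 107, so mt-Nd3 held 16.97% of the counts of gene and copy there against 84.7% to 92.6% elsewhere. The 3 genes lie in the order mt-Tg, mt-Nd3, mt-Tr, and mt-Co3, which precedes them, had 54.4 CPM in that heart beside 57.6 and 59.9 CPM in its group. After mt-Tr comes mt-Nd4l, with 355 counts in that heart and 401 and 341 in its group. The copy Gm10222 had 476 counts there, so mt-Nd4l held 42.7% of the counts of gene and copy. A lower share, 22.7%, was found in WT saline replicate 3, with 1468 counts of Gm10222. The other hearts had 54.3% to 81.0%.

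Without a pump, mt-Nd3 had 33.0, 4.91 and 18.4 CPM in MCT1KO, against 59.9, 25.9, 33.7 and 41.7 CPM in WT. The groups overlapped, and the log2 fold change was -1.10 (SE 0.50, adjusted p = 0.388, edgeR). This value includes MCT1KO no pump replicate 2, with 84 counts of mt-Nd3 and 411 of Gm28438. The other hearts of its group had 673 and 412 counts of mt-Nd3 and 80 and 58 of Gm28438. Whether reads of the gene were counted at the copy in that heart was not tested. mt-Nd3 was the only member with an unadjusted p below 0.05 between genotypes without a pump, where 6.74% of all genes were lower at that p.

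**Figure D4:**
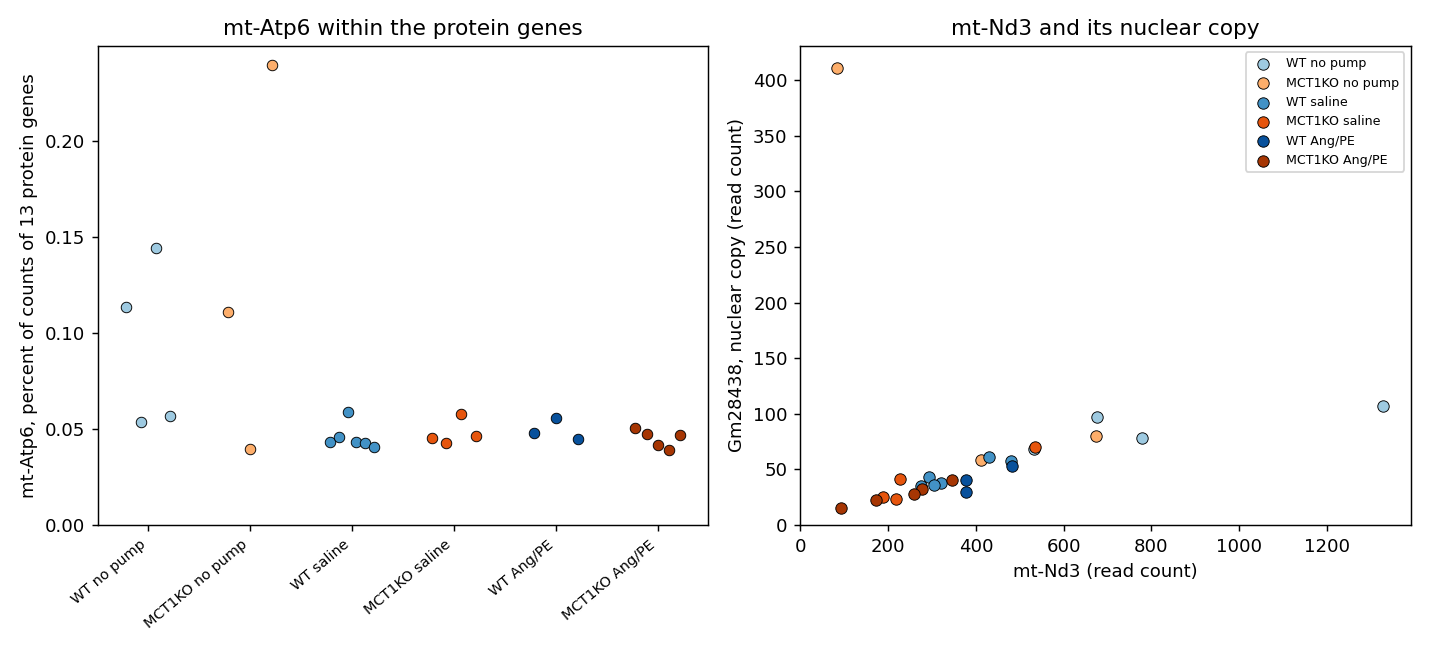
Left, mt-Atp6 as percent of the counts of the 13 protein genes in each heart; right, read counts of mt-Nd3 and of its nuclear copy Gm28438 in each heart. On the left 4 no pump hearts lie above all others, and on the right MCT1KO no pump replicate 2 lies at 84 and 411.

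The genotypes were compared within each treatment. No member was called by edgeR or DESeq2 in any of the 3 comparisons, and edgeR called 0 of all 17682 genes in each, while DESeq2 called 0.492% without a pump, 0.797% with saline and 0.0283% with Ang/PE. With saline, 4 members had an unadjusted p below 0.05, all lower in MCT1KO, where 8.62% of all genes were: mt-Nd6, mt-Te, mt-Tq and mt-Tt, named after their values were seen. mt-Nd6 had 447, 410, 802 and 839 CPM in MCT1KO saline and 483, 986 and 1415 CPM at the lowest, median and highest WT saline heart. The groups overlapped, and the log2 fold change was -0.67 (SE 0.28, adjusted p = 0.243, edgeR). mt-Te, the glutamate tRNA beside mt-Nd6 on the same strand, had 2.95, 2.94, 3.06 and 0.825 CPM against 3.10, 4.10 and 6.39 CPM. It was the only member whose groups did not overlap, against 1.82% of all genes in this direction (log2 fold change -0.80, SE 0.29, adjusted p = 0.190, edgeR).

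For the 13 protein genes, the log2 difference between genotypes (MCT1KO minus WT) with saline ran from -0.67 to -0.08, with a median of -0.18 beside 0.03 over all genes. With Ang/PE they ran from -0.87 to 0.07, with a median of -0.30. The lowest, mt-Nd4l, was the 1 member with an unadjusted p below 0.05, and 2.92% of all genes were lower at that p. It had 17.9, 10.5, 16.3, 14.7 and 14.2 CPM in MCT1KO and 43.8, 16.9 and 19.5 CPM in WT, and 1 WT heart stood far above the rest (adjusted p = 0.692, edgeR). Without a pump they ran from -1.10 to 0.28, with a median of -0.09. There mt-Rnr1 was the only member without overlap, with 722, 698 and 520 CPM in MCT1KO and 898, 759, 838 and 827 CPM in WT, against 6.47% of all genes in this direction (adjusted p = 0.703, edgeR).

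Ang/PE against saline asks what the agonists change. In WT, edgeR and DESeq2 called 0 members, where they called 0.017% and 3.63% of all genes, and 2 tRNAs had an unadjusted p below 0.05, both lower, as were 9.58% of all genes. These were mt-Te, with 2.32, 2.16 and 2.14 CPM below all saline hearts (log2 fold change -0.94, SE 0.33, adjusted p = 0.134, edgeR), and mt-Tl2 (-0.96, SE 0.44). Lack of overlap in this direction was found for 7.16% of all genes. A fit of these 2 groups alone called mt-Te as lower, and 5.68% of all genes. The protein genes ran from -0.38 for mt-Nd6 to 0.58 for mt-Nd4l, and 12 of 13 were above 0.

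In MCT1KO, Ang/PE against saline gave 0 calls among members in edgeR and DESeq2 and 0 at an unadjusted p below 0.05, where edgeR called 4.46% of all genes, DESeq2 6.92%, and 20.4% had such a p. The protein genes ran from -0.05 to 0.36, with a median of 0.17 beside -0.01 over all genes. Without MCT1KO saline replicate 3, 1 member passed: mt-Co3, higher with Ang/PE, against 8.77% of all genes. The interaction of genotype and Ang/PE gave 0 calls among members in edgeR (0% of all genes) and DESeq2 (0.0735%) and 0 members at an unadjusted p below 0.05, against 13.5% of all genes. These comparisons share the saline hearts with those of saline against no pump.

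**Figure D5:**
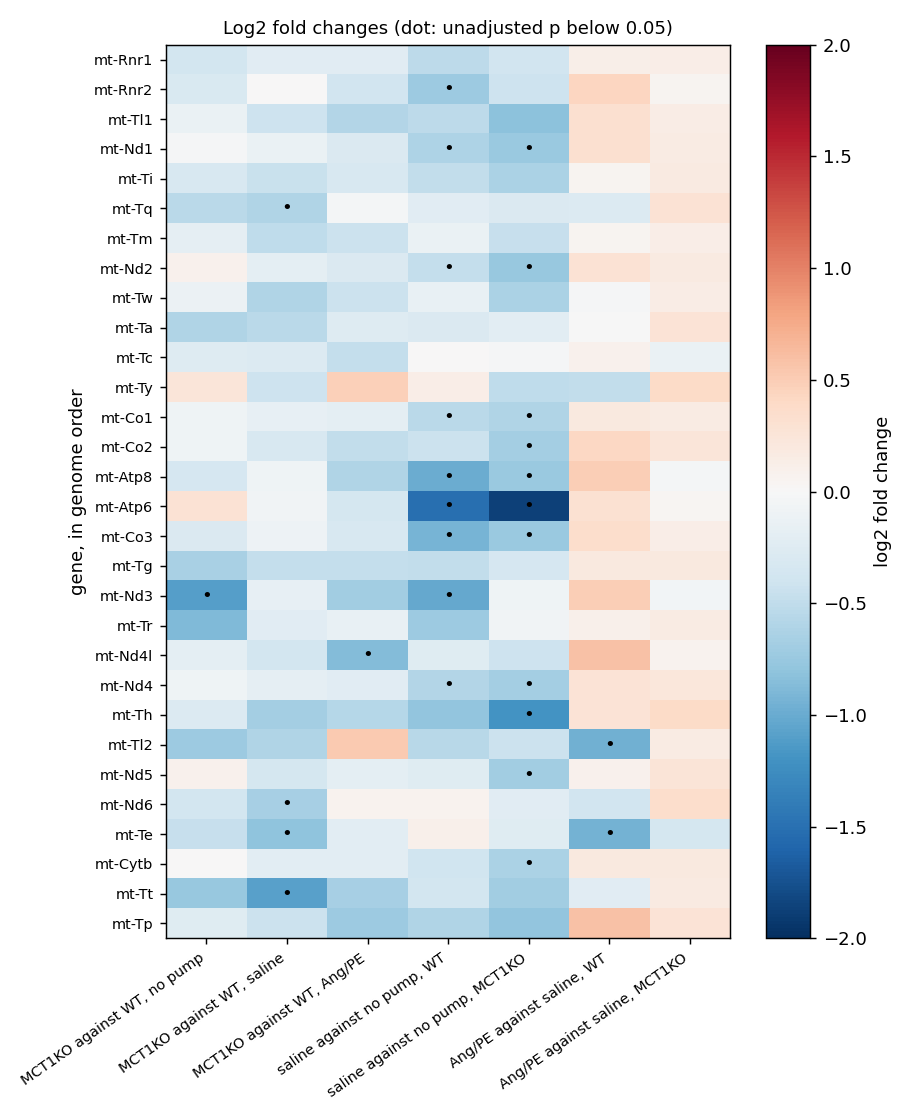
Log2 fold changes of the 30 tested members (rows, genome order) in the 7 comparisons of a pair of groups (columns); dots mark an unadjusted p below 0.05. The darkest cells are those of mt-Atp6 in the saline columns, at -1.51 and -1.87.

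The nuclear genes that copy, process and stabilise mitochondrial RNA were listed as 46 genes, all of which were tested. Between saline and no pump in WT, 4 of the 46 fell and 0 rose, with a median of 0.01, where 4.22% of all genes were called lower. They were Slirp, which binds mitochondrial mRNAs together with Lrpprc (log2 fold change -0.71, SE 0.19, adjusted p = 0.0293), Pnpt1, an exoribonuclease (-0.40), Ssbp1, which binds single-stranded mitochondrial DNA (-0.47), and Trnt1, which adds the CCA end to tRNAs (-0.32). Polrmt, the mitochondrial RNA polymerase, was at 0.40 (SE 0.12, adjusted p = 0.0513, edgeR), Tfam, which packages mitochondrial DNA, at 0.01, and Lrpprc at 0.33 (adjusted p = 0.138). In MCT1KO the same comparison called 0 of the 46 in edgeR, with 2 lower at an unadjusted p below 0.05, where 4.68% of all genes were. Polrmt stood at -0.14 there, Tfam at -0.16, Lrpprc at -0.33 and Slirp at -0.14. Ptcd2, which acts on the RNA that holds mt-Cytb, rose with Ang/PE against saline in MCT1KO (0.43, SE 0.12, adjusted p = 0.0325, edgeR), where 4.46% of all genes were called, and it was the only call in the list in the other comparisons. Between genotypes with saline, 0 of the 46 passed in edgeR and 16 were lower in MCT1KO at an unadjusted p below 0.05, where 8.62% of all genes were.

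Nuclear subunits of complexes I, III, IV and V were listed as 72 genes. In WT, 16 of the 72 were lower with saline than without a pump and 0 higher, with a median of -0.28, where 4.22% of all genes were called lower. By complex, 6 of 36 fell in complex I, 2 of 9 in complex III, 5 of 12 in complex IV and 3 of 15 in complex V. In MCT1KO 0 passed in edgeR and 4 were lower at an unadjusted p below 0.05, with a median of -0.19, where 4.68% of all genes were lower at that p. In the other comparisons 0 of the 72 passed in edgeR. Between genotypes, 26 of the 72 without a pump and 27 with saline were lower in MCT1KO at an unadjusted p below 0.05, where 6.74% and 8.62% of all genes were. In each of these comparisons 68 of the 72 were below 0, with medians of -0.31 and -0.24. With saline, 10 of 10 cardiomyocyte markers were also below 0 in MCT1KO, with a median of -0.33 and 3 at that p. Of the adipose markers 7 of 7 tested, and of the smooth muscle markers 4 of 4, were higher at that p, where 8.43% of all genes were. Without a pump 5 of the 10 cardiomyocyte markers were below 0, with a median of -0.01. The part of these markers in the values of the 46 and the 72 genes was not tested. With Ang/PE 0 of the 72 had such a p between genotypes, against 6.92% of all genes, with a median of -0.12 and 66 below 0. Ang/PE against saline gave 2 at that p in WT (19.1% of all genes) and 0 in MCT1KO (20.4%). Each interaction gave 3, where 13.5% of all genes had such a p for Ang/PE and 17.2% for saline.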

How the data were processed

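The authors deposited 1 table of raw read counts per gene, with Ensembl identifiers, for 25 mouse hearts; per the labels' protocols, rRNA-depleted RNA was made into stranded libraries. The submitters' processing notes name STAR 2.7.9a, cutadapt 1.16, featureCounts 1.6.3, DESeq2 1.42.1 and the build GRCm39 (mm39). The strand setting, the annotation and the handling of multiply matching or overlapping reads are not given in the sources used here. Symbols were found for 51948 genes; sequences, lengths and strand come from GENCODE M21 (GRCm38), so no coordinates are given.

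Columns were matched to samples by their titles. Shares are counts over the library total. CPM are counts per 1000000 of TMM-scaled library size, and CPM per kb divide by transcript length. Tests used edgeR 4.0.16 in R 4.3.3: filterByExpr left 17682 genes, and 1 robust quasi-likelihood model of 6 groups (19 residual degrees of freedom) gave 9 two-sided comparisons, with Benjamini-Hochberg adjustment over all tested genes at 0.05. Sums over members were described without a test. The fit was tested on simulated data.

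The members and lists were chosen with earlier results of these data known. The 13 protein and 2 rRNA genes were named where called and otherwise by range or value, tRNAs where called or highest, and of the list of mitochondrial RNA factors Polrmt, Tfam, Lrpprc, Slirp and up to 6 called genes; other names were chosen after seeing values. Alternatives were DESeq2 1.42.0, RLE scaling in edgeR, all genes with no filter on low counts, only the groups compared, a replicate block, library totals without mitochondrial genes, an Xist covariate, scaling to the mitochondrial protein genes, other denominators for shares and leaving out each heart. Added after seeing the data were nuclear copy counts, marker covariates, and GC and length offsets.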

Additional observations from a re-analysis of the deposited data

Results flagged for a closer look

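Of 76 tests for a heart far from its group (Dixon's ratio, groups of 4 to 10 hearts), 7 found one, where chance alone gives about 1 in 20, or 3.8. All 7 concern MCT1KO saline replicate 3, which lay above the other 3 hearts of its group. Mitochondrial genes took 17.3% of its counts, against 9.03% to 10.04%, protein genes 13.2%, against 7.07% to 7.89%, and tRNA genes 0.0426%, against 0.0168% to 0.0201%. On the scale of log2(CPM + 1), mt-Cytb was at 14.13 (others 13.11 to 13.29), mt-Atp6 at 6.27 (4.81 to 5.02), mt-Co3 at 6.01 (4.601 to 4.72) and mt-Nd4l at 4.67 (3.51 to 3.52). These measures overlap, since mt-Cytb is part of each sum over protein genes.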

How the results depend on the processing

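The WT saline against no pump count of 3 members became 6 with DESeq2 (11% of all genes called). It became 9 with only the groups compared (13.8%) and 1 (mt-Atp6) with the replicate block (2.98%). It was 0 without the low-count filter (1.37%), with atrial and adipose covariates (0%), and with GC and length offsets (0.903%). The reported fit called 6.61%. Leaving out 1 heart gave 0 to 3 members. The share of all genes called then varied too, with 0.341% without WT no pump replicate 3 and 12.7% without WT no pump replicate 1. In MCT1KO the count of 0 became 1 with DESeq2 (1.18%) and 0 to 10 with 1 heart left out (3.5% at the count of 10). Ang/PE against saline gave 1 in WT with only the groups compared (5.68%). In MCT1KO it gave 0 to 1 with 1 heart left out (8.77% without MCT1KO saline replicate 3). Correlations of same-numbered hearts ran from -0.35 to 0.46, and in no comparison did every heart correlate best with its own number. With 3 or 4 pairs per comparison, these values cannot show whether the replicate numbers pair the hearts. The block changed no other count of members. With it, 0.65% of all genes passed between genotypes with saline, beside 0 in the reported fit.

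Some signs turned. Under saline against no pump, mt-Nd3 in MCT1KO became 0.10 with the block, 0.19 with the Xist covariate, 0.60 with the marker covariates, 0.14 with GC and length offsets and -0.59 to 0.58 with 1 heart left out. mt-Nd6 became -0.20 in WT and 0.28 in MCT1KO with Xist, and -0.056 to 0.31 in WT with 1 heart left out. mt-Nd4l in WT became 0.22 with copy counts added, 0.20 with marker covariates and 0.18 with offsets, and in MCT1KO 0.20 with marker covariates. Marker covariates also gave mt-Nd5 0.11 and mt-Cytb 0.026 in WT and mt-Rnr1 0.11 in MCT1KO, and offsets gave mt-Nd5 0.10 and mt-Co2 0.039 in WT. The cause was not tested.

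Share differences of Ang/PE against saline in MCT1KO became 1.24 points over TMM-scaled sizes and 0.138 for protein genes over counts without rRNA and tRNA genes, and -0.849 to 1.89 with 1 heart left out; MCT1KO against WT with saline ran from -2.14 to 0.599. Of the 22 tRNAs, 7 had too few counts to be tested. The reason for their low counts was not tested.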
